A study of Mus musculus with 6 samples.

Results

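The muscle splicing regulators described here are 10 genes, Rbm20, Rbm24, Mbnl1, Mbnl2, Celf1, Celf2, Rbfox1, Rbfox2, Qk and Ptbp1, taken by name from a table of read counts for 44792 gene symbols. All 10 had counts, and 9 of them were among the 14370 genes tested. Whole hearts of 6 untreated C57BL/6 mice, aged 3 months, gave 1 library each. The wild type group and the group with the R193H mutation of cTnI had 3 hearts each. cTnI, or cardiac troponin I, is the subunit by which the troponin complex holds the thin filament off between beats. Whether the mutation was knocked in or carried by a transgene, and on how many alleles, is not given in the sources used here. At issue is whether the messenger RNA of these regulators and of their targets differs between wild type and mutant hearts.

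These proteins bind RNA and decide which exons of a transcript are kept. RBM20 represses exons of titin and of calcium handling genes, and its inherited mutations cause dilated cardiomyopathy. RBM24 promotes inclusion of muscle exons, and the MBNL proteins favour the adult exon pattern that CELF1 and CELF2 oppose. RBFOX proteins bind the RNA word UGCAUG, Quaking (Qk) guides muscle exon choice, and PTBP1 represses muscle exons outside mature muscle. Counts per gene measure the amount of messenger RNA of each regulator or target, so exon choice itself was not measured.

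The libraries held 14736067 to 21852210 counts each. The ventricular muscle of the labelled tissue was checked with 11 ventricular cardiomyocyte markers, all of which passed the filter on low counts. Their summed level was 68503 to 71674 CPM (read counts over the library total in units of 1e6, with totals scaled by the trimmed mean of M values, TMM) in wild type hearts and 62936 to 67737 in R193H hearts. Skeletal muscle markers summed to between 2.55 and 3.61 CPM over all hearts, with Myh4 and Myf6 at 0. Other parts varied between hearts. Atrial markers summed to 87.1 to 730 CPM in wild type and 148 to 307 CPM in R193H hearts. Erythroid markers summed to 257 to 3096 CPM in wild type and 476 to 630 CPM in R193H hearts. Tnni3, the gene of cTnI, measured 3202, 3466 and 3282 CPM in wild type replicates 1, 2 and 3, and 3900, 3641 and 3703 CPM in R193H replicates 1, 2 and 3. Gene counts do not show the mutated base. Only TrnL1, a mitochondrial transfer RNA gene, passed an adjusted p of 0.05 in the edgeR quasi-likelihood test, at 0.00696% of the genes tested. Its log2 fold change was -0.94 (SE 0.080, adjusted p = 0.0063, lower in 3 of 3 R193H hearts).

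Several regulators are close relatives, so a read could in principle match more than 1 of them. The coding sequences of 4 related pairs were compared, and the longest stretch that both members of a pair hold in common stands in capitals in the following lines, within up to 30 bases of their own sequence on each side. Sequences are coding strand DNA, 5′ to 3′, from GENCODE M21 transcripts on GRCm38, and the longest coding sequence of each gene was used.
Mbnl1: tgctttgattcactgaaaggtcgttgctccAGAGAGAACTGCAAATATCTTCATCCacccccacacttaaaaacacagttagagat
Mbnl2: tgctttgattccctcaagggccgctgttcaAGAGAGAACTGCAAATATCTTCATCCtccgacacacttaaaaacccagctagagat
Celf1: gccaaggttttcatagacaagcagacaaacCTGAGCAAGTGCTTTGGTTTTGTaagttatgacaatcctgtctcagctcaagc
Celf2: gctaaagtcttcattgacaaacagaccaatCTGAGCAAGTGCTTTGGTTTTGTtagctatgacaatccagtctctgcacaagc
Rbfox1: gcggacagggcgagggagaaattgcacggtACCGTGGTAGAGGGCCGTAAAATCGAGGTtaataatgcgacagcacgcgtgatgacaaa
Rbfox2: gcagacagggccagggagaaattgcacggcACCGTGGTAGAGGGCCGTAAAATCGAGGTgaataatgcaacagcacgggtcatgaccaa
Rbm24: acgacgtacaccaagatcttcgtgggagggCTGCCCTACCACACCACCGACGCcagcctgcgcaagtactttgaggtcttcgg
Rbm38: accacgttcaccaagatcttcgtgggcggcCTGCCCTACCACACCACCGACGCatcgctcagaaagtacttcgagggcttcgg
The shared stretch was 26 bases long for Mbnl1 and Mbnl2, 23 for Celf1 and Celf2, 29 for Rbfox1 and Rbfox2, and 23 for Rbm24 and its paralog Rbm38. Over all annotated transcripts, no word of 50 bases was shared between any of the members other than Qk and another member or a listed paralog, and Qk shared 2 of its 14318 words. Read length is not given in the sources used here.

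Shared sequence of another kind touched Ptbp1 and Celf2. Of the 5181 different 50-base words in Ptbp1 transcripts, 18.34% also occurred in transcripts of other genes, on either strand. They belonged to the genes Gm17134, E130317F20Rik and Plppr3 on the opposite strand at the Ptbp1 locus, and to the processed pseudogenes Gm4900 on chromosome 13 and Gm18815 on chromosome 15. In Celf2 the share was 6.96%, all of it with the noncoding RNA Gm26565 on the opposite strand. Whether the counting used strand, and how it treated reads that match several places, is not given in the sources used here. These are shares of words and not of reads, so how far the counts of Ptbp1 and Celf2 are affected was not measured. For the other 8 members the share was at most 0.39%.

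Levels were compared between genes per kilobase of the longest coding transcript. Rbm24 (GRCm38 chromosome 13, 46418434 to 46431095) and Qk (chromosome 17, 10202601 to 10319854) stood at the top. Rbm24 ranged from 57.9 to 66.5 CPM per kilobase in wild type hearts, above the 47.7 to 55.3 of Qk in the same hearts. In R193H hearts the ranges of Rbm24 (48.2 to 52.7) and Qk (44.3 to 52.6) overlapped. Mbnl1 (chromosome 3, 60472830 to 60629750) came next, at 24.0 to 25.6 over all 6 hearts, apart from its neighbours on both sides. Mbnl2 (chromosome 14, 120275669 to 120431697) at 12.4 to 16.4, Rbfox2 (chromosome 15, 77078990 to 77307004) at 11.98 to 14.6 and Celf1 (chromosome 2, 90940382 to 91019497) at 12.6 to 14.4 overlapped and could not be ordered. Ptbp1 (chromosome 10, 79854427 to 79864771) lay at 8.46 to 10.97 and Celf2 (chromosome 2, 6539694 to 7509563) at 5.86 to 6.84. At the low end were Rbm20 (chromosome 19, 53677306 to 53867080), at 1.05 to 2.18, and Rbfox1 (chromosome 16, 5885355 to 7411526), at 0.103 to 0.255.

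**Figure D1:**
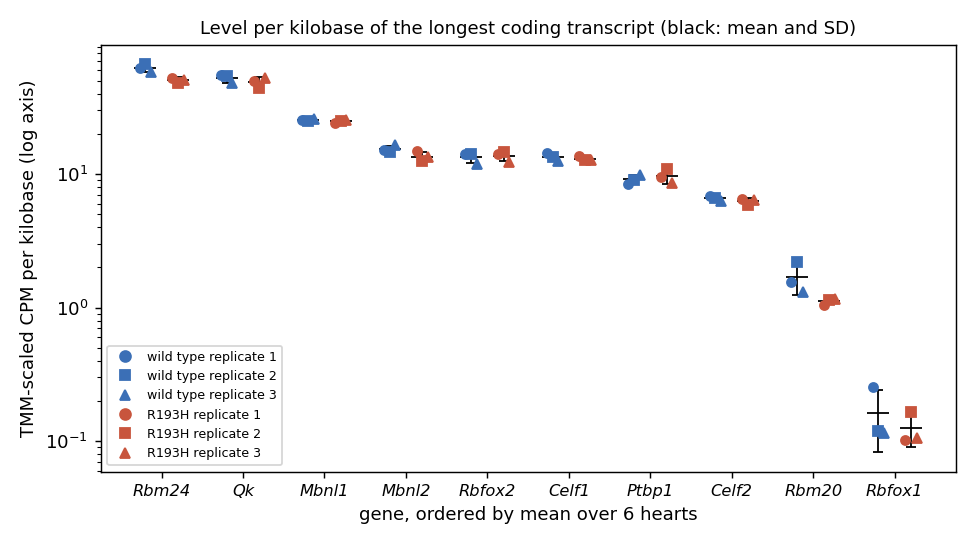
Level of each splicing regulator in TMM-scaled CPM per kilobase of its longest coding transcript, on a log axis, with 1 point per heart and the mean and SD of each genotype in black. Rbm24 and Qk lie highest, 6 genes from Mbnl1 to Celf2 lie between 5.86 and 25.6, and Rbm20 and Rbfox1 lie lowest.

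The order of the middle genes depended on which exons are counted as the gene. With the union of all annotated exons as the length, Rbm24 (42.6 to 58.8 CPM per kilobase) lay above Qk (26.6 to 33.2) in every heart. Mbnl1, whose exon union is 18717 bases against 5655 for its longest coding transcript, then stood at 7.27 to 7.73, below Celf1 at 11.7 to 13.4 and Rbfox2 at 10.2 to 12.4. In these counts Rbm20 and Rbfox1 were the lowest of the 10 on both scales, with at most 11 Rbfox1 reads per heart. How the table was counted is not given, so the place of Rbfox1 need not reflect its amount.

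Between genotypes, Rbm24 and Rbm20 had the smallest p among the regulators, and neither passed the threshold. Rbm24 measured 192.5, 205.2 and 178.8 CPM in wild type replicates 1, 2 and 3, and 162.7, 148.9 and 156.3 CPM in R193H replicates 1, 2 and 3. Every R193H heart lay below every wild type heart. The mean level was 192 ± 13.2 CPM for wild type and 156 ± 6.94 CPM in the mutant hearts (SD, n = 3 per genotype). The log2 fold change was -0.30 (SE 0.084), with a 95% interval of -0.49 to -0.11 before any correction for the number of genes tested, and the edgeR adjusted p was 0.722. By unadjusted p (0.00498) it ranked 91 among the 14370 genes.

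Rbm20 had 108, 176 and 128 reads in the wild type libraries and 114, 123 and 122 in the R193H libraries. Scaled, these were 7.66, 10.7 and 6.41 CPM in wild type replicates 1, 2 and 3, and 5.13, 5.63 and 5.68 CPM in R193H replicates 1, 2 and 3. The groups did not overlap, but wild type replicate 2 stood apart from the other wild type hearts and wild type replicate 3 lay close to the R193H range. The log2 fold change was -0.59 (SE 0.19, 95% interval -1.02 to -0.15, edgeR adjusted p = 0.722). Leaving out wild type replicate 2 gave -0.36, with an unadjusted p of 0.0667.

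The share of genes whose groups of hearts did not overlap was 11.8% among all genes tested. Among the 9 regulators tested it was 2, Rbm20 and Rbm24, both lower in R193H hearts, against a background of 5.8% of genes in that direction (6.02% in the other, where no regulator lay). An unadjusted p under 0.05 was reached by the same 2 regulators and by 5.73% of all genes. With so few members these counts say little about the group. With library totals in place of TMM, the median log2 fold change of all genes went from -0.00036 to 0.13, and Rbm24 stood at -0.17 and Rbm20 at -0.46.

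**Figure D2:**
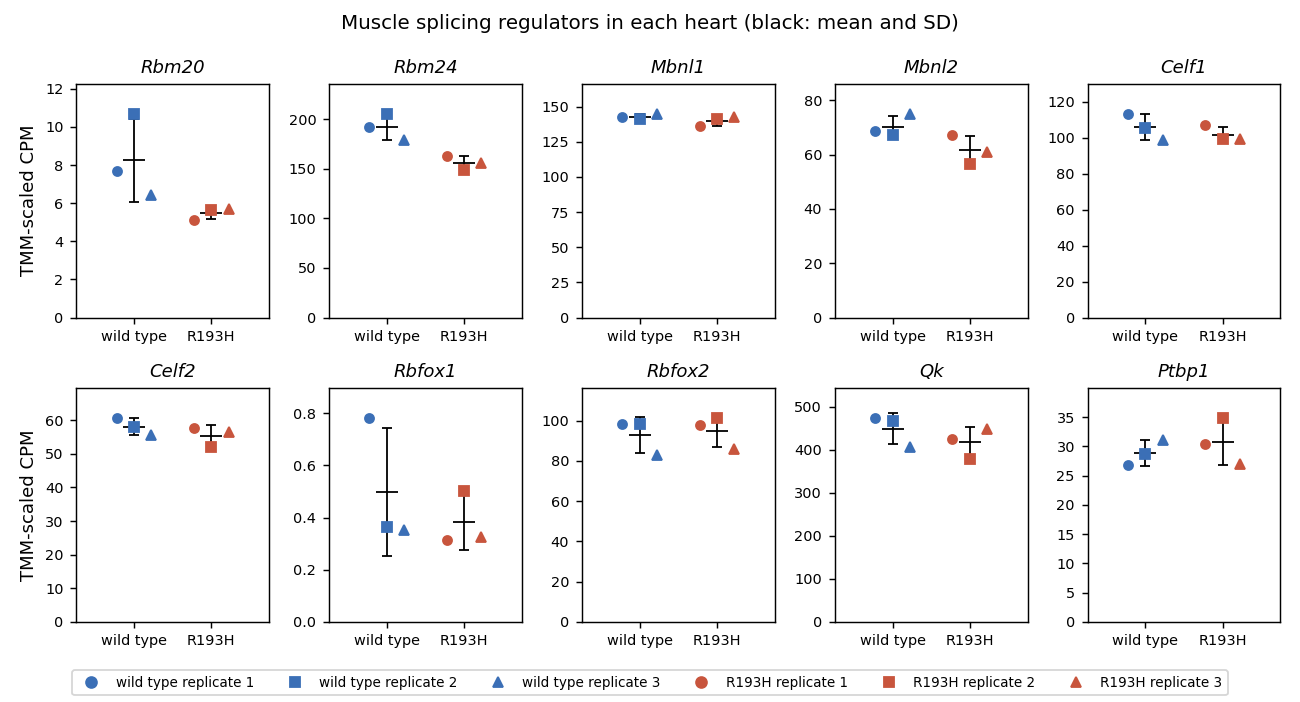
TMM-scaled CPM of each of the 10 splicing regulators, with a separate axis from 0 for each gene, 1 point per heart, and the mean and SD of each genotype in black. The R193H hearts lie below the wild type hearts for Rbm20 and Rbm24, and the genotypes overlap for the other 8 genes.

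Since whole hearts were sequenced, fewer cells of a type and less RNA per cell cannot be told apart. Rbm24 and Rbm20 are known as genes of muscle cells, and after their values were seen they were set against the ventricular markers of the same heart. Of the 11 ventricular markers, 8 had a lower and 3 a higher mean in R193H hearts, with a median log2 fold change of -0.085. For 5 of the 11 the groups did not overlap, beside 11.8% of all genes. These 5 did not share a direction: Tnni3 was higher and Tnnt2 lower in R193H hearts. The groups did not overlap either for the summed level given above, which a few abundant genes dominate. The mean log2 CPM, which weights the 11 markers equally, was 12.30 ± 0.041 in wild type and 12.26 ± 0.048 in R193H hearts, with overlapping groups. Relative to that mean, Rbm24 was at -4.70, -4.67 and -4.78 in wild type replicates 1, 2 and 3, and at -4.96, -5.00 and -4.98 in R193H replicates 1, 2 and 3. The difference was -0.26. For Rbm20 it was -0.52, and -0.34 without wild type replicate 2. Both genes were chosen because their groups did not overlap, so these values are a description. Markers of other cells went both ways. Means were higher in R193H hearts for 10 of 10 endothelial markers (median log2 fold change 0.11). The same held for 9 of 10 fibroblast (0.21) and 10 of 10 macrophage markers (0.54). All tested erythroid (5, median -1.95), atrial (5, -0.80) and adipocyte markers (4, -0.20) had lower means. Of the pericyte and smooth muscle markers 7 of 10 were higher, of the lymphocyte markers 5 of 8, and of the epicardial markers 6 of 7 (median 1.62). No marker of these lists passed the threshold. Endothelial markers summed to 1198 to 1482 CPM in the wild type and 1319 to 1476 CPM in the mutant hearts, and fibroblast markers to 3322 to 4176 and 3225 to 4943 CPM. Macrophage markers summed to 360.5 to 426.5 and 441.7 to 629.7 CPM, without overlap. Single macrophage markers did not overlap between groups in 5 of 10 cases, beside 11.8% of all genes, and no endothelial or fibroblast marker did so. An unadjusted edgeR p under 0.05 was reached by 8 macrophage markers, all higher in R193H hearts, beside 5.73% of all genes. The part of these lists in these results was not tested.

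Neither muscleblind gene passed the threshold. Mbnl1, which encodes the main muscleblind protein of muscle, varied little over the 6 hearts. It measured 142.7, 141.4 and 144.7 CPM in wild type replicates 1, 2 and 3, and 136.0, 141.1 and 143.0 CPM in R193H replicates 1, 2 and 3. Its log2 fold change was -0.030 (SE 0.072), and the 95% interval of the ratio of R193H to wild type ran from 0.876 to 1.09. Mbnl2 measured 68.7, 67.1 and 74.9 CPM in the wild type and 67.2, 56.6 and 60.8 CPM in R193H replicates 1, 2 and 3. R193H replicate 1 lay within the wild type range and the other R193H hearts below it (log2 fold change -0.19, SE 0.089, edgeR adjusted p = 0.863). Under scaling by library totals, where the median of all genes was 0.13, Mbnl2 stood at -0.068.

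Celf1 and Celf2, the opponents of the muscleblind proteins in heart development, gave overlapping groups. Celf1 measured 113.2, 105.4 and 98.8 CPM in wild type replicates 1, 2 and 3, and 107.0, 99.1 and 99.1 CPM in R193H replicates 1, 2 and 3 (log2 fold change -0.056, SE 0.081). Celf2 measured 60.6, 58.1 and 55.5 CPM in the wild type and 57.8, 51.9 and 56.5 CPM in the R193H hearts (log2 fold change -0.067, SE 0.079). The 95% interval of the ratio of R193H to wild type ran from 0.848 to 1.09 for Celf1 and from 0.844 to 1.08 for Celf2.

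In these counts the RBFOX genes were the most unequal pair. How the table was counted is not given in the sources used here, so a low Rbfox1 count need not measure its amount. Rbfox2 measured 98.1, 98.1 and 82.7 CPM in wild type replicates 1, 2 and 3, and 98.0, 101.1 and 85.6 CPM in R193H replicates 1, 2 and 3. Replicate 3 was the lowest heart of each genotype, and the groups overlapped (log2 fold change 0.030, SE 0.098, edgeR adjusted p = 0.98). Rbfox1 had 11, 6 and 7 reads in the wild type libraries and 7, 11 and 7 in the R193H libraries. These counts were too low for the filter, so Rbfox1 was not tested, and its levels of 0.315 to 0.781 CPM cannot be told apart between genotypes at this depth.

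Qk, which encodes the Quaking proteins, had the most reads of the group. It measured 473.1, 465.9 and 407.4 CPM in wild type replicates 1, 2 and 3, and 424.3, 378.5 and 449.3 CPM in R193H replicates 1, 2 and 3. The groups overlapped (log2 fold change -0.10, SE 0.097, edgeR adjusted p = 0.908). Ptbp1, the repressor that declines as muscle matures, measured 26.8, 28.6 and 31.1 CPM in the wild type and 30.3, 34.8 and 26.9 CPM in the R193H hearts. Its highest heart was R193H replicate 2, without which its log2 fold change of 0.087 (SE 0.11) became -0.011.

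**Figure D3:**
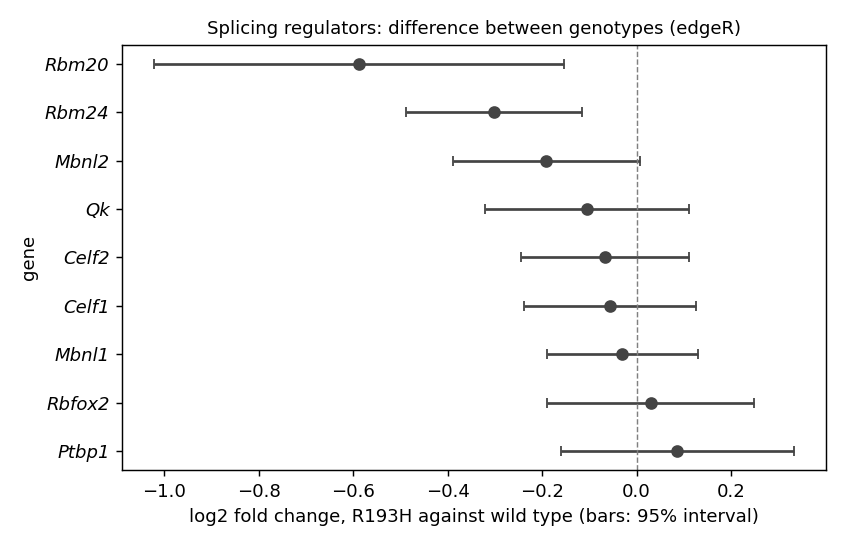
Log2 fold change of the 9 tested splicing regulators, R193H against wild type, with its 95% interval as bars and a dashed line at no difference. The intervals of Rbm20 (-1.02 to -0.15) and Rbm24 (-0.49 to -0.11) lie below 0 before correction for the number of genes tested, and the other 7 include 0.

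In all, 7 of the 9 tested regulators had a lower and 2 a higher mean in R193H hearts, with a median log2 fold change of -0.067 beside -0.00036 for all genes. None passed the threshold (edgeR adjusted p 0.722 to 0.98), nor did any in DESeq2, where the lowest adjusted p was 0.181 for Rbm24. At an unadjusted p under 0.05, both tools gave the same number, 2. Scaling by library totals turned the median of the regulators to 0.057, where the median of all genes was 0.13. With each heart left out in turn the median of the regulators ranged from -0.12 (without wild type replicate 3) to -0.035 (without R193H replicate 2). Rbfox1 passed the filter without wild type replicate 3, so that median covers 10 regulators. Without R193H replicate 2 the median covers 9.

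The spread between hearts of a genotype differed among the regulators. For Mbnl1 the coefficient of variation was 1.16% in wild type and 2.59% in R193H hearts, close to the 1.94% that read counting alone gives. Qk varied by 8.03% and 8.61%, well above its counting error of 1.11%. Rbm20 varied by 26.5% in wild type and by 5.59% in R193H hearts beside a counting error of 8.93%, and Rbfox1 by 49.1% and 27.7% beside 36.0%. The other 6 regulators varied by 4.35% to 12.8%, beside counting errors of 1.74% to 4.26%.

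One heart recurred at the edge of these ranges. R193H replicate 2 was the lowest of the 6 hearts for Rbm24, Mbnl2, Celf2 and Qk, and the highest for Rbfox2 and Ptbp1. In that heart 30.9% of counts came from mitochondrially encoded genes. The share was 35.2% and 35.4% in the other R193H hearts and 36.7% to 36.8% in wild type hearts. The TMM factor of R193H replicate 2 was 1.118, against 1.019 and 1.001 in the other R193H hearts and 0.9472 to 0.9675 in wild type hearts. Both values thus also separated the genotypes. Its fibroblast markers summed to 4943 CPM (3225 to 4176 in the others) and its epicardial markers to 75.3 CPM (19.1 to 43.6), and their part in the values of the regulators was not tested. Without R193H replicate 2, Rbm24 stood at -0.27, Mbnl2 at -0.13 and Rbfox2 at -0.015.

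Ratios of 2 regulators within a heart do not move with the scaling of the library. The log2 ratio of Mbnl1 to Mbnl2 was 1.05, 1.08 and 0.95 in wild type replicates 1, 2 and 3, and 1.02, 1.32 and 1.23 in R193H replicates 1, 2 and 3. The groups overlapped, with means of 1.03 ± 0.067 and 1.19 ± 0.16 (SD, n = 3 each; exact permutation test, two-sided p = 0.3, adjusted p = 0.6 over 4 pairs, where 3 hearts against 3 cannot give an unadjusted p under 0.1). The difference of 0.16 was 0.098 without R193H replicate 2 and 0.25 without R193H replicate 1. For Celf1 to Celf2 the means were 0.86 ± 0.035 and 0.88 ± 0.062 (exact permutation test, two-sided p = 0.8, adjusted p = 0.8). This ratio was the steadiest of the 4 across hearts, from 0.81 to 0.93. Rbfox1 to Rbfox2 gave -7.64 ± 0.59 and -7.99 ± 0.32, resting on at most 11 Rbfox1 reads per heart (exact permutation test, two-sided p = 0.6, adjusted p = 0.8). The difference of -0.35 became -0.011 without wild type replicate 1, and leaving out R193H replicate 1 or wild type replicate 2 gave -0.20 and -0.56. For Rbm20 to Rbm24 the means were -4.57 ± 0.28 and -4.83 ± 0.14, with overlapping groups (exact permutation test, two-sided p = 0.3, adjusted p = 0.6). The difference of -0.26 was -0.11 without wild type replicate 2.

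**Figure D4:**
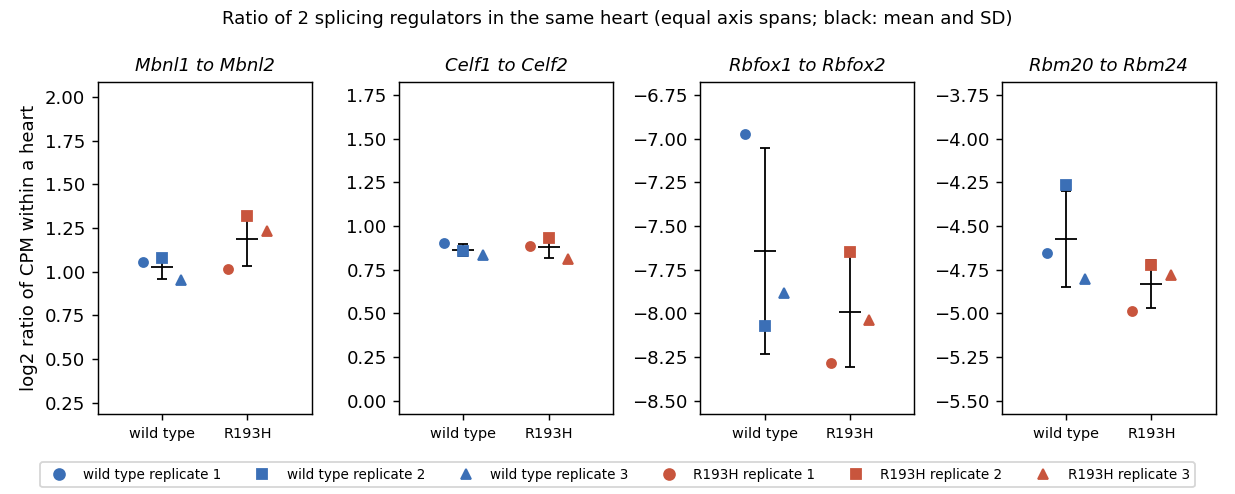
Log2 ratio of the CPM of 2 splicing regulators in the same heart, for 4 pairs on axes of equal span, with 1 point per heart and the mean and SD of each genotype in black. The genotypes overlap in all 4 pairs, and the Celf1 to Celf2 ratio stays between 0.81 and 0.93.

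Of 9 paralogs of the regulators, 5 were tested, 2 with a higher and 3 with a lower mean in R193H hearts, and none passed the threshold. Rbm38, the paralog of Rbm24, measured 144.3, 160.7 and 152.1 CPM in the wild type and 146.4, 116.9 and 138.8 CPM in R193H replicates 1, 2 and 3 (log2 fold change -0.19, SE 0.098). Its groups overlapped, unlike those of Rbm24. Mbnl3 (0.30, SE 0.30) and Ptbp2 (-0.084, SE 0.13) also overlapped. Celf6 and the neuronal Rbfox3 had 0 counts in all 6 hearts.

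Lists of genes that work beside the regulators in splicing had median log2 fold changes from -0.062 to 0.023. The median of all genes was -0.00036, and 0.13 under library totals, and that of the regulators was -0.067. The SR proteins thus lay close to the regulators. Among 12 SR proteins tested, which bind exonic enhancers, 4 had higher and 8 lower means (median log2 fold change -0.062, and 0.061 under library totals). Among 23 hnRNP genes, common repressors of exons, 13 had higher and 10 lower means (median 0.023, and 0.15 under library totals). The 34 genes of the core spliceosome divided into 16 higher and 18 lower means (median -0.0082, and 0.12 under library totals). In 22 other tissue-biased splicing factors, 8 means were higher and 14 lower (median -0.029). No gene of these 4 lists passed the threshold in edgeR. Smallest in p were Rbm5 (-0.26, SE 0.10) and Fxr2 (-0.29, SE 0.13) among the tissue-biased factors, and Srsf10 (-0.22, SE 0.094), Srsf5 (0.15, SE 0.091) and Srsf7 (-0.14, SE 0.093) among the SR proteins. Hnrnpk stood at 0.20 (SE 0.094), Hnrnpf at 0.31 (SE 0.17) and Prpf31, a spliceosome assembly factor, at 0.25 (SE 0.14).

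Kinases that phosphorylate SR proteins bear on RBM20, whose serine and arginine rich region is phosphorylated. Of 9 tested, 4 had higher and 5 lower means (median log2 fold change -0.0064), and none passed the threshold. Srpk2 measured 59.8, 55.4 and 66.0 CPM in wild type replicates 1, 2 and 3, and 50.4, 39.4 and 53.6 CPM in R193H replicates 1, 2 and 3. Its R193H hearts lay below the wild type hearts (log2 fold change -0.34, SE 0.12, edgeR adjusted p = 0.753). Srpk1 (-0.13, SE 0.087) did not overlap between groups either, and Clk1 stood at 0.10 (SE 0.21). These 2 of 9 without overlap stand beside 11.8% of all genes, and so few members say little about the list.

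Known splicing targets of RBM20 were mostly lower as whole genes. Of 22 tested, 19 had a lower and 3 a higher mean in R193H hearts, and none passed the threshold. The median log2 fold change was -0.16, and -0.025 under library totals, where the median of all genes was 0.13. The groups of hearts did not overlap for 7 (31.8%, beside 11.8% of all genes), and all 7 were lower (5.8% of all genes). Among the 11 ventricular markers, 5 did not overlap either, in differing directions (Tnni3 higher, Tnnt2 lower). The list holds no ventricular marker of the list above but many abundant sarcomere and calcium handling genes of the same muscle cells. The target list was chosen with earlier results of these data known, so its shares are a description and not a test.

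Titin (Ttn), the giant spring of the sarcomere and best known RBM20 target, measured 4476, 4452 and 4094 CPM in wild type replicates 1, 2 and 3, and 3522, 2687 and 3670 CPM in R193H replicates 1, 2 and 3 (log2 fold change -0.40, SE 0.12, edgeR adjusted p = 0.722). Its lowest heart was again R193H replicate 2. Lrrfip1 was lower in all 3 R193H hearts, at 58.9, 53.7 and 58.8 CPM against 70.9, 68.4 and 69.1 CPM (log2 fold change -0.28, SE 0.075). Tpm1, the tropomyosin of the thin filament, stood at -0.19 (SE 0.079), without overlap. The ryanodine receptor Ryr2 stood at -0.20 (SE 0.098), the kinase Camk2d at -0.13 (SE 0.097) and the Z-disc gene Ldb3 at -0.085 (SE 0.083). The 3 targets with higher means, named after their values were seen, were Rtn4 (0.11, SE 0.081), Sh3kbp1 (0.027, SE 0.11) and Trdn (0.020, SE 0.093). Without R193H replicate 2 the median of the list was -0.10.

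**Figure D5:**
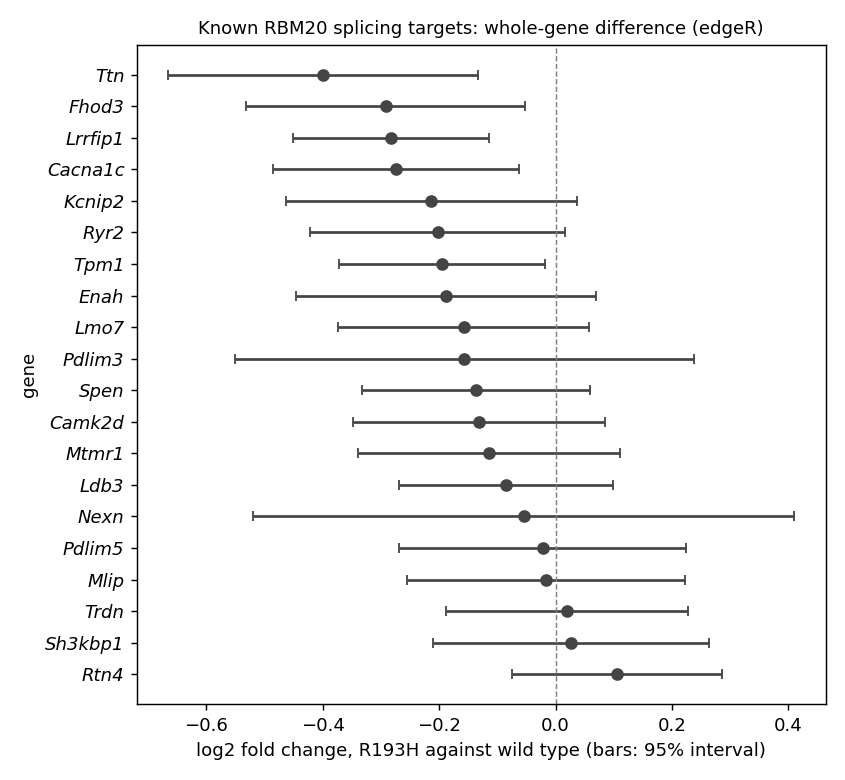
Log2 fold change of 20 of the known RBM20 splicing targets as whole genes, R193H against wild type, with its 95% interval as bars and a dashed line at no difference. Of these, 17 lie below 0, from Ttn at -0.40, and 3 lie above it, up to Rtn4 at 0.11.

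Targets of the MBNL and CELF proteins were less uniform. Of 19 tested, 15 had lower and 4 higher means, and none passed the threshold. The median log2 fold change was -0.11, and 0.011 under library totals, where the median of all genes was 0.13. Groups did not overlap for 5 (26.3%, beside 11.8% of all genes), of which 3 were lower and 2 higher. This list too was chosen with earlier results known, so its shares are a description. Tnnt2, whose fetal exon is a classic target of both protein families, measured 6834, 7158 and 6736 CPM in the wild type and 5940, 5641 and 6307 CPM in R193H replicates 1, 2 and 3 (log2 fold change -0.21, SE 0.082). The insulin receptor gene Insr (-0.32, SE 0.13) had overlapping groups. The target lists have 4 genes in common, Ldb3, Pdlim3 and Ryr2 among them, so the lists are not independent. Without R193H replicate 2 the median was -0.067.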

How the data were processed

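The submitters' processing notes name HISAT2 2.0.4 and the build GRCm38. The authors deposited 1 table of raw whole-number read counts per gene, whose columns carry the titles of the 6 hearts. The sources used here name neither the counting program nor the annotation. No 2 hearts agreed within sampling noise (chi-square of at least 12.2 per degree of freedom). The series design calls the hearts biological repeats, and replicate numbers pair no hearts.

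The main test was that of edgeR 4.0.16 in R 4.3.3 (filterByExpr with defaults, TMM factors, robust quasi-likelihood test, Benjamini-Hochberg over 14370 genes, threshold 0.05). SE is the log2 fold change divided by the root of F. Scripts were tested on simulated data. Lengths and coding sequences come from GENCODE M21. The members and lists were chosen with earlier results of these data known. All 10 members were named, and, of each splicing or target list, the 3 genes of smallest p and the most abundant gene were eligible, with Ttn, Camk2d, Ryr2, Ldb3, Tnni3 and called genes. Alternatives were other scalings, filters and tests (DESeq2 1.42.0, limma-voom in limma 3.58.1), and each heart left out. Ratios to ventricular markers and the exon union length were chosen after seeing the data. Some genes that this rule takes are counted in their lists but not reported here by name.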

Additional observations from a re-analysis of the deposited data

How the results depend on the processing

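No regulator passed the threshold under any of 15 alternatives. Rbm24 ranged from -0.35 to -0.17 and Rbm20 from -0.75 to -0.36 on the log2 scale, without a change of sign. Library totals turned Mbnl1 to 0.098, Celf1 to 0.071, Celf2 to 0.057 and Qk to 0.019, by the shift of all genes under that scaling. Rbfox2 turned to -0.048 without wild type replicate 3 and to -0.015 without R193H replicate 2, and Ptbp1 to -0.011 without R193H replicate 2; with each heart left out in turn their highest values were 0.11 and 0.18. The Celf1 to Celf2 ratio differed by -0.0030 and -0.015 without these same hearts, and by up to 0.047 with others left out. Over all genes, edgeR called 0 without mitochondrially encoded genes, since TrnL1 is one of them, 38 without a filter, and 3 to 21 with a heart left out. DESeq2, which was also run without that filter, called 40, so tool and filter changed together. The cause of the other counts was not tested. No paired analysis was possible because the labels number no replicates, and the numbers used here only name the hearts. Depth limits Rbfox1, which has at most 11 reads per heart, and so may the way the table was counted, which is not given.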

Other observations

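Some splicing targets had few or no reads, and these were picked after their values were seen. Dmd, the dystrophin gene, which heart muscle expresses, had 0 counts in all 6 hearts, which allows up to 0.135 to 0.213 CPM by counting error alone (3 counts). Bin1, a gene of the transverse tubules with a muscle exon, had a mean of 0.898 ± 0.087 CPM for wild type and of 1.14 ± 0.41 CPM for R193H (SD, 3 hearts per genotype). Clasp1 measured 3.66 ± 0.45 and 2.71 ± 0.095 CPM, and Arhgef7 1.52 ± 0.17 and 2.06 ± 0.18 CPM. How the table was counted is not given in the sources used here, so a low value of such a gene, Rbfox1 included, need not measure its amount.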
